A study of Saccharomyces cerevisiae with 10 samples.

Results

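The 10 amino acid permeases described here are the yeast genes *BAP2* (YBR068C), *BAP3* (YDR046C), *TAT1* (YBR069C), *TAT2* (YOL020W), *AGP1* (YCL025C), *GNP1* (YDR508C), *HIP1* (YGR191W), *CAN1* (YEL063C), *LYP1* (YNL268W) and *DIP5* (YPL265W), taken by gene name from the 6607 genes of the count table. All 10 passed the filter on low counts, with 327 to 7548 counts per culture, and are among the 5856 genes tested. RNA-Seq was performed on 10 *Saccharomyces cerevisiae* cultures that differed in the allele and plasmid of *SUP35*, the gene for the translation termination factor eRF3. Cells of strain 218-L-14-D1690 bore *sup35-218*, a nonsense allele, on the *LEU2* plasmid pRSU1-218 after plasmid shuffling (stage 3, 3 cultures). Cells of strain L-14-D1690 bore wild-type *SUP35* on a *LEU2* plasmid after the same shuffling (stage 3, 4 cultures), and cells of the initial strain U-14-D1690 bore *SUP35* on the *URA3* plasmid pRSU2 (stage 1, 3 cultures). All 3 groups lacked chromosomal *SUP35* (SUP35::HIS3MX) and shared the markers ade1-14(UGA) and trp1-289(UAG), together with his3-d200, lys2, ura3-52 and a mutant *leu2* gene. According to the methods of the study, the *URA3* plasmid was kept in medium without uracil and the *LEU2* plasmids in medium without leucine, whereas the sample labels give SC medium for every culture and pRSU2 for both *SUP35* groups. Plasmid marker, medium and stage therefore cannot be told apart in any comparison with stage 1 cells. In *sup35-218* cells over stage 1 cells the *SUP35* allele differs along with them.

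Yeast amino acid permeases are plasma membrane proteins with many transmembrane segments that carry amino acids into the cell against their gradient together with protons. External amino acids are sensed by Ssy1, Ptr3 and Ssy5 (the SPS sensor), which has the latent transcription factors Stp1 and Stp2 cleaved, and these activate *BAP2*, *BAP3*, *TAT1*, *AGP1*, *GNP1* and *DIP5*. *CAN1*, *LYP1* and *HIP1* are held to be expressed more evenly, and a strain that cannot make tryptophan or lysine must import them.

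The cultures had total counts of 3044096 to 4861009, and normalization factors were 0.968 to 1.02. Replicates of a group differed by more than counting error, with a chi-square per degree of freedom of 6.72 to 23.7. The labels give the genotype as MATa. The levels of mating-type genes go against this: the 3 alpha-specific genes *STE3*, *MF(ALPHA)1* and *MF(ALPHA)2* summed to 629 to 910 normalized CPM (counts scaled to the same library total) in *sup35-218* cells, 962 to 1135 in *SUP35* stage 3 cells and 918 to 1148 in *SUP35* stage 1 cells. The 4 a-specific genes *STE2*, *MFA1*, *MFA2* and *BAR1* summed to 37.6 to 40.1 CPM in *sup35-218* cells, 37.6 to 137 in *SUP35* stage 3 cells and 148 to 423 in *SUP35* stage 1 cells. None of these 7 genes was at 0 in a whole group. By the test used below, all 4 a-specific genes were lower than at stage 1 in both stage 3 groups. Of all genes tested, 16.5% were lower in *sup35-218* cells and 6.63% in *SUP35* stage 3 cells. Of the 3 alpha-specific genes, 1 was lower in *sup35-218* cells than at stage 1. In *SUP35* stage 3 cells 1 was higher than at stage 1 (7.21% of all genes). In *sup35-218* over *SUP35* at stage 3, 1 gene of each set was lower (12.6% of all genes). The part of the mating-type genes in the permease differences with stage 1 was not tested.

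The permeases together took 2840 ± 109 CPM in *sup35-218* cells (SD, n = 3), 2743 ± 121 CPM in *SUP35* stage 3 cells (n = 4) and 4499 ± 261 CPM in *SUP35* stage 1 cells (n = 3). These sums were 0.285% of all counts in *sup35-218* cells, 0.273% in *SUP35* stage 3 cells and 0.451% in *SUP35* stage 1 cells. The stage 3 cultures of both alleles thus had a similar total, below that of every stage 1 culture. In RNA from whole cultures, fewer cells that express a gene and less RNA per cell cannot be told apart. Most of the gap was *BAP2*, which made up 16.6% of the permease total in *sup35-218* cells, 17.0% in *SUP35* stage 3 cells and 33.9% in *SUP35* stage 1 cells.

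**Figure D1:**
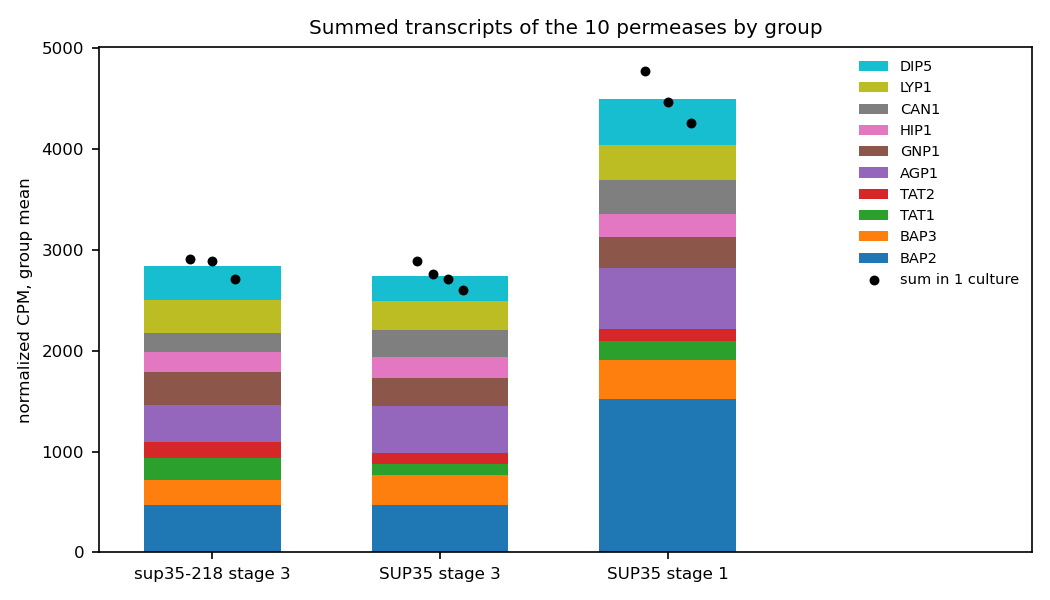
Summed normalized CPM of the 10 permeases (vertical axis) in the 3 groups (horizontal axis); coloured segments are the group mean of each gene and black points the sum in each culture. The segment of *BAP2* at the base is 473 CPM in *sup35-218* cells, 466 CPM in *SUP35* stage 3 cells and 1526 CPM in *SUP35* stage 1 cells.

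Genes were called differentially expressed (DEGs) when edgeR's quasi-likelihood test gave an adjusted p-value under 0.05 and the log2FC exceeded 0.5 in size. In *sup35-218* cells against *SUP35* stage 3 cells, 2 of the 10 permeases were higher (*TAT1* and *TAT2*), where 10.7% of all genes tested were higher. None was lower, where 12.6% of all genes were. At an unadjusted p under 0.05 and without the cutoff on size, 3 had lower values (*BAP3*, *AGP1* and *CAN1*), and DESeq2 called 0 lower. In *sup35-218* cells against *SUP35* stage 1 cells, 4 permeases were lower (*BAP2*, *BAP3*, *AGP1* and *CAN1*) against 16.5% of all genes, and none was higher against 14.7% (1 at an unadjusted p under 0.05, *TAT2*, and 0 by DESeq2). In *SUP35* stage 3 cells against *SUP35* stage 1 cells, 3 were lower (*BAP2*, *TAT1* and *DIP5*) against 6.63% of all genes, and none was higher against 7.21% (0 at an unadjusted p under 0.05 and 0 by DESeq2). The median log2FC over the permeases was 0.09, -0.31 and -0.37 in these 3 comparisons, and over all genes it was -0.01, 0.04 and -0.00. Since each pair of comparisons shares a group of cultures, their values are given side by side and not as support of each other.

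**Figure D2:**
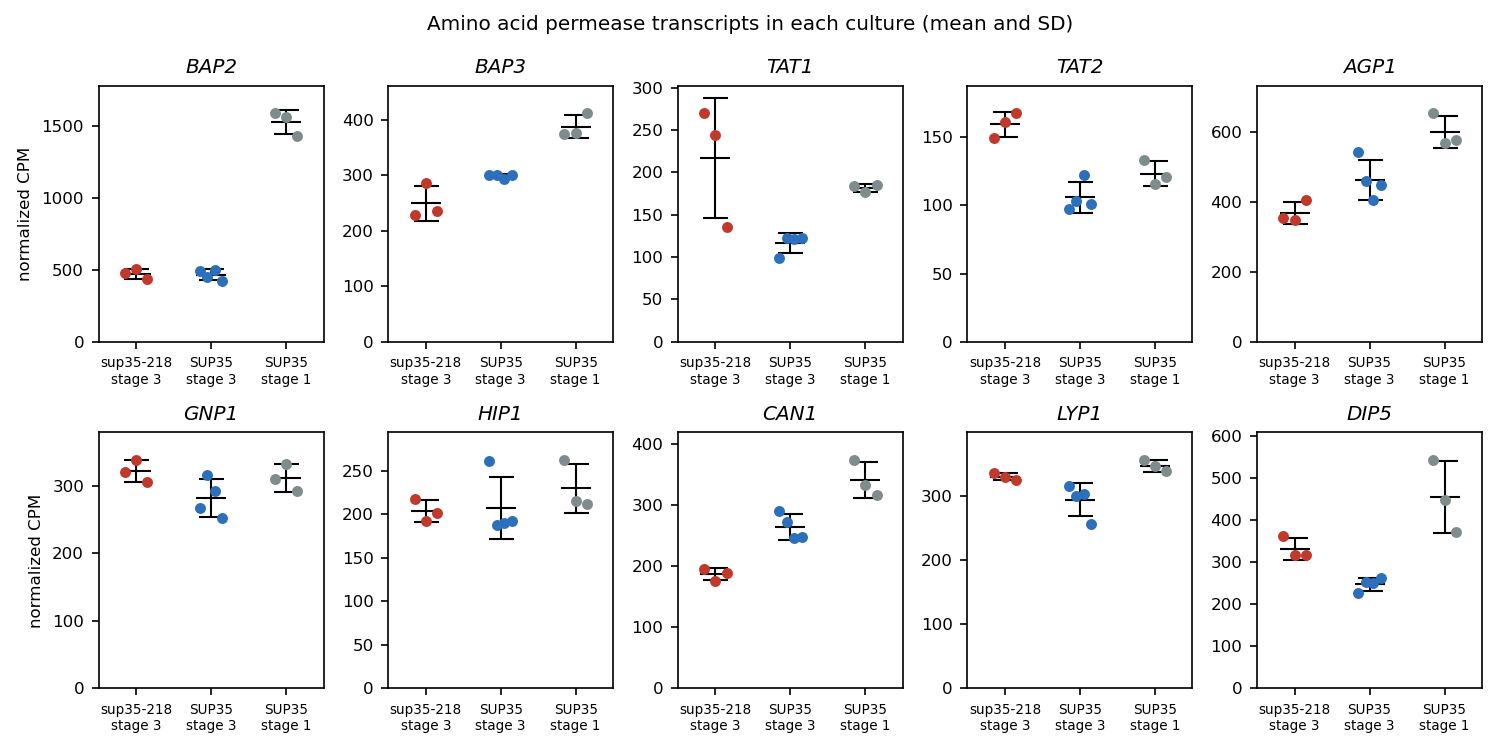
Normalized CPM (vertical axis, from 0) of each permease in every culture of the 3 groups; points are cultures, and bars give the mean and SD (n = 3, 4 and 3 from left to right). *BAP2* lay between 420 and 505 CPM in all 7 stage 3 cultures and above 1431 CPM at stage 1, while *TAT1* spread from 136 to 270 CPM among the *sup35-218* cultures.

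*BAP2* encodes the main carrier of leucine, isoleucine and valine. The gene lies on the reverse strand of chromosome II (S288C, R64, chrII:373861-375690). Its upstream stretch is shown because it holds matches to sites of both the sensor pathway and leucine control. The capitals mark CGGCTC, a core sequence of the Stp1 and Stp2 element, then CCGGNNCCGG, the palindrome bound by the leucine regulator Leu3, and TGACTC, the site of the general amino acid regulator Gcn4. They start 405, 386 and 212 bases before the start codon. The stretch is chrII:375887-376105, printed 5′ to 3′ on the reverse strand.
*BAP2* upstream: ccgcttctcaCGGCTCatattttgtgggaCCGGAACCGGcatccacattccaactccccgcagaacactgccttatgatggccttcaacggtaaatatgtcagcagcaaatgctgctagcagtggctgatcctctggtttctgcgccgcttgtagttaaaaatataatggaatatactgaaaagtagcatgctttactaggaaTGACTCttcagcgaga
*BAP2* had 479, 505 and 434 CPM in the 3 *sup35-218* cultures, against 495, 454, 497 and 420 CPM in the 4 *SUP35* stage 3 cultures. The stage 1 cultures had 1587, 1559 and 1431 CPM. The stage 3 groups overlapped, and all their cultures lay far below stage 1. The log2FC of *sup35-218* over *SUP35* at stage 3 was 0.02 ± 0.11 (SE, adjusted p = 0.91 by edgeR's quasi-likelihood test). *BAP2* fell relative to stage 1 in both, with a log2FC of -1.69 ± 0.12 in *sup35-218* cells (adjusted p = 2.8e-07) and -1.71 ± 0.11 in *SUP35* stage 3 cells (adjusted p = 4e-07), which are 0.310 and 0.306 of the stage 1 level.

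The Leu3 palindrome is rare: of 6574 genes with a window of 500 bases before the start codon, 17 (0.259%) held it on either strand, and *BAP2* was the only permease among them. Genes of leucine, isoleucine and valine synthesis are in that group of 17. In *SUP35* stage 3 cells over stage 1 cells, *LEU1* had a log2FC of -3.01, *BAT1* -1.46, *ILV5* -1.02 and *ILV2* -0.97, and each was a DEG. In *sup35-218* cells over stage 1 cells the same 4 genes had -3.79, -2.01, -1.38 and -1.05. In *sup35-218* over *SUP35* at stage 3 they had -0.78, -0.55, -0.36 and -0.08, where *BAP2* had 0.02. Of these, *LEU1* and *BAT1* were DEGs in that comparison, and *ILV5*, *ILV2* and *BAP2* were not. Of the 16 genes of the group that were tested, 3 were higher and 3 lower in *sup35-218* than in *SUP35* cells at stage 3 (10.7% and 12.6% of all genes tested). Against stage 1, 4 were higher and 8 lower in *sup35-218* cells (14.7% and 16.5% of all genes), and 1 was higher and 9 lower in *SUP35* stage 3 cells (7.21% and 6.63% of all genes). *LEU2*, which the stage 3 plasmids carry, was among the higher ones in each comparison. A match is a description of the sequence, and binding was not measured. This group was assembled after the values were seen, and *BAP2* itself is counted among its lower genes against stage 1.

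*BAP3*, a carrier of branched-chain amino acids and others, lies on chromosome IV (chrIV:548762-550576, reverse strand). Its upstream stretch is shown for its pair of CGGCTC matches, 406 and 361 bases before the start codon, in capitals; the second is read from the opposite strand. It is chrIV:550922-550992 on the reverse strand.
*BAP3* upstream: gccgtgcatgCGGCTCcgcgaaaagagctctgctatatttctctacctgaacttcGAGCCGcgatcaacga
*BAP2* and *BAP3* were the 2 permeases with CGGCTC in the window, which 6.77% of all genes had. *BAP3* had 228, 286 and 236 CPM in *sup35-218* cells, 299, 300.4, 293 and 300.0 CPM in *SUP35* stage 3 cells and 374, 376 and 411 CPM in stage 1 cells. The 3 groups did not overlap. *BAP3* was lower in *sup35-218* cells than at stage 1 (log2FC -0.63 ± 0.11, adjusted p = 0.00033 by edgeR's quasi-likelihood test). Its log2FC was -0.38 ± 0.10 in *SUP35* stage 3 cells over stage 1 (adjusted p = 0.014) and -0.26 ± 0.10 in *sup35-218* over *SUP35* at stage 3 (adjusted p = 0.056), both under the cutoff on size.

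*TAT1*, which carries tyrosine and tryptophan as well as branched-chain amino acids, is the upstream neighbour of *BAP2* on the same strand, with 883 bases between the coding sequences (chrII:376574-378433). The 250 bases before its start codon are shown because *TAT1* moved in 2 comparisons. None of the 4 motifs searched was in its window of 500 bases, so the stretch has no capitals. It is chrII:378434-378683 on the reverse strand.
*TAT1* upstream: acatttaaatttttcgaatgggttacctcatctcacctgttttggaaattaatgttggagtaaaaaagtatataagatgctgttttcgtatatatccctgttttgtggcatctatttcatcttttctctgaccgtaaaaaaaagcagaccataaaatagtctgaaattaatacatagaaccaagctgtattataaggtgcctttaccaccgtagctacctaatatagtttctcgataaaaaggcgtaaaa
*TAT1* had 270, 244 and 136 CPM in *sup35-218* cells, 98.5, 122, 121 and 123 CPM in *SUP35* stage 3 cells and 184, 176 and 186 CPM in stage 1 cells. The *sup35-218* cultures were all above the *SUP35* stage 3 cultures but far apart, with a coefficient of variation of 32.7%, and the stage 1 values lay inside their range. *TAT1* was higher in *sup35-218* than in *SUP35* cells at stage 3 (log2FC 0.90 ± 0.18, adjusted p = 0.0015 by edgeR's quasi-likelihood test). It was lower in *SUP35* stage 3 cells than at stage 1 (log2FC -0.65 ± 0.18, adjusted p = 0.018). For *sup35-218* over stage 1 the log2FC was 0.25 ± 0.19 (adjusted p = 0.30), and without *sup35-218* replicate 3, the culture at 136 CPM, it was 0.54 and passed the test (adjusted p = 0.0033).

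*TAT2*, the high-affinity tryptophan and tyrosine permease, lies on chromosome XV (chrXV:286172-287950, forward strand), and none of the 4 motifs was in its window. *TAT2* had 149, 161 and 167 CPM in *sup35-218* cells, 97.2, 103, 123 and 101 CPM in *SUP35* stage 3 cells and 133, 115 and 121 CPM in stage 1 cells. All *sup35-218* cultures were above all others, and the *SUP35* groups overlapped. *TAT2* was higher in *sup35-218* than in *SUP35* cells at stage 3 (log2FC 0.59 ± 0.10, adjusted p = 0.00062 by edgeR's quasi-likelihood test). Its log2FC was 0.37 ± 0.11 in *sup35-218* cells over stage 1 (adjusted p = 0.013, under the cutoff on size) and -0.22 ± 0.10 in *SUP35* stage 3 cells over stage 1 (adjusted p = 0.14). The *TAT1* and *TAT2* calls in *sup35-218* cells against *SUP35* stage 3 cells held in each of the 10 fits that left out 1 culture, and both were lost when the test was made against a log2FC of 0.5 instead of 0, with adjusted p-values of 0.063 and 0.44.

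*AGP1* and *GNP1* encode permeases of broad range, *AGP1* a low-affinity carrier of asparagine, glutamine and many others and *GNP1* a glutamine carrier. *AGP1* (chrIII:76018-77919, reverse strand) is shown with its Gcn4 match, read from the opposite strand, and with matches to GATAAG, the site of the nitrogen regulators of the GATA family. These start 437, 429 and 253 bases before the start codon, at chrIII:78157-78366 on the reverse strand.
*AGP1* upstream: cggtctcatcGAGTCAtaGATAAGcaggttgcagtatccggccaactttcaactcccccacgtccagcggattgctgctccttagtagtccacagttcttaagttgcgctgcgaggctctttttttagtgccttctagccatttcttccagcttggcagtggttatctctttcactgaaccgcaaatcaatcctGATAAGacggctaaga
*AGP1* had 355, 348 and 405 CPM in *sup35-218* cells, 542, 458, 405 and 448 CPM in *SUP35* stage 3 cells and 653, 567 and 578 CPM in stage 1 cells. The groups stood in that ascending order, with the highest *sup35-218* culture (404.7 CPM) just under the lowest *SUP35* stage 3 culture (405.2 CPM). *AGP1* was lower in *sup35-218* cells than at stage 1 (log2FC -0.70 ± 0.13, adjusted p = 0.00055 by edgeR's quasi-likelihood test). Its log2FC was -0.33 ± 0.12 in *sup35-218* over *SUP35* at stage 3 (adjusted p = 0.040) and -0.37 ± 0.12 in *SUP35* stage 3 cells over stage 1 (adjusted p = 0.032), both under the cutoff on size.

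*GNP1* (chrIV:1466453-1468444, reverse strand) had 320, 338 and 306 CPM in *sup35-218* cells, 267, 316, 292 and 251 CPM in *SUP35* stage 3 cells and 310, 332 and 292 CPM in stage 1 cells. All 3 groups overlapped. Its log2FC was 0.19 ± 0.10, 0.05 ± 0.11 and -0.15 ± 0.10 in *sup35-218* over *SUP35* at stage 3, *sup35-218* over stage 1 and *SUP35* stage 3 over stage 1, with adjusted p-values of 0.16, 0.76 and 0.31 by edgeR's quasi-likelihood test. A gene of the table on the other strand, YDR509W, overlaps *GNP1* by 219 bases, and the strand setting of the counting was not given in the sources used here.

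*CAN1*, *LYP1* and *HIP1* encode the carriers of arginine, lysine and histidine. *CAN1* (chrV:31694-33466, reverse strand) is shown for its 3 closely spaced GATAAG matches, which start 286, 275 and 267 bases before the start codon, and a Gcn4 match on the opposite strand at 354. The stretch is chrV:33718-33830 on the reverse strand.
*CAN1* upstream: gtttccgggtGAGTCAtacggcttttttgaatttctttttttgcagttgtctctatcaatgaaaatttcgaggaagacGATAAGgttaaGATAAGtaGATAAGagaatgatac
GATAAG was in the window of 2 of the 10 permeases (*AGP1* and *CAN1*) and of 22.6% of all genes. *CAN1* had 195, 176 and 189 CPM in *sup35-218* cells, 290.0, 271, 245 and 247 CPM in *SUP35* stage 3 cells and 373, 332 and 315 CPM in stage 1 cells. The 3 groups did not overlap, with *sup35-218* lowest and stage 1 highest. *CAN1* was lower in *sup35-218* cells than at stage 1 (log2FC -0.87 ± 0.11, adjusted p = 2.4e-05 by edgeR's quasi-likelihood test). In *sup35-218* over *SUP35* at stage 3 its log2FC of -0.498 ± 0.10 (adjusted p = 0.0017) was just under the cutoff on size. It was -0.53 and past the cutoff without *SUP35* stage 3 replicate 3 and likewise without replicate 4. Over stage 1 it was -0.37 ± 0.10 in *SUP35* stage 3 cells (adjusted p = 0.015).

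*LYP1* (chrXIV:138550-140385, forward strand) had 336, 329 and 324 CPM in *sup35-218* cells, 315, 299.8, 303 and 256 CPM in *SUP35* stage 3 cells and 356, 346 and 338 CPM in stage 1 cells. The groups were separate but close. Its log2FC was 0.17 ± 0.09, -0.07 ± 0.10 and -0.24 ± 0.09 in *sup35-218* over *SUP35* at stage 3, *sup35-218* over stage 1 and *SUP35* stage 3 over stage 1, with adjusted p-values of 0.18, 0.59 and 0.078 by edgeR's quasi-likelihood test. *HIP1* (chrVII:880420-882231, forward strand) had 218, 192 and 201 CPM in *sup35-218* cells, 261, 188, 189 and 192 CPM in *SUP35* stage 3 cells and 263, 215 and 212 CPM in stage 1 cells. All groups overlapped, and 1 *SUP35* stage 3 culture stood above the other 3. Its log2FC was -0.03 ± 0.13, -0.17 ± 0.14 and -0.15 ± 0.13 in the same 3 comparisons, with adjusted p-values of 0.88, 0.31 and 0.43. *HIP1* held TGACTC at 380 and 46 bases before its start codon. Together with *BAP2*, *AGP1* and *CAN1* it made 4 of 10 permeases with the site, which 13.2% of all genes had. YGR190C, on the other strand, overlaps *HIP1* by 242 bases.

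*DIP5*, the carrier of glutamate and aspartate (chrXVI:41043-42869, forward strand), had none of the 4 motifs in its window, nor had *LYP1* or *GNP1*. The window of *LYP1* runs into the gene before it, which ends 455 bases away. *DIP5* had 361, 317 and 317 CPM in *sup35-218* cells, 226, 253, 249 and 261 CPM in *SUP35* stage 3 cells and 543, 447 and 372 CPM in stage 1 cells. The 3 groups did not overlap, and here the *sup35-218* cultures lay between the *SUP35* groups. *DIP5* was lower in *SUP35* stage 3 cells than at stage 1 (log2FC -0.88 ± 0.12, adjusted p = 0.00028 by edgeR's quasi-likelihood test). Its log2FC was 0.42 ± 0.12 in *sup35-218* over *SUP35* at stage 3 (adjusted p = 0.015) and -0.45 ± 0.13 in *sup35-218* cells over stage 1 (adjusted p = 0.012), both under the cutoff on size. Without stage 1 replicate 3, the lowest of that group, the last value was -0.58 and past the cutoff.

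**Figure D3:**
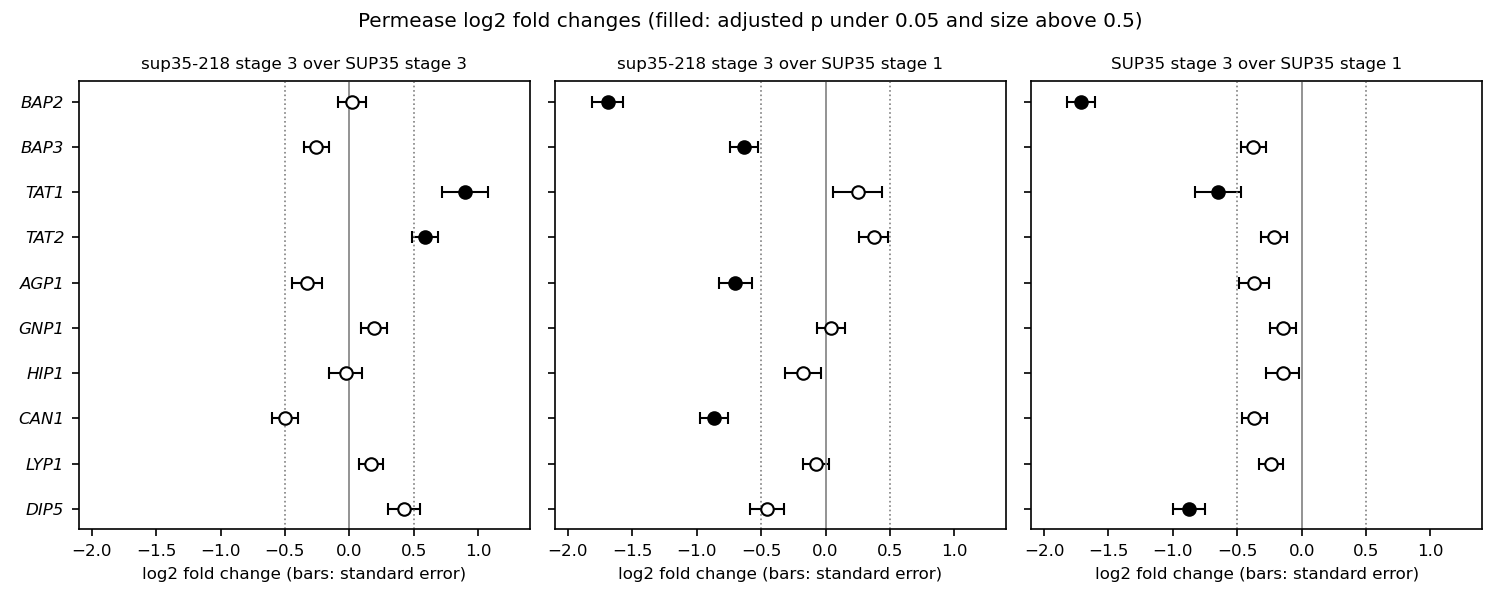
Log2FC (horizontal axis) of each permease in the 3 comparisons, with the standard error as bars; filled points have an adjusted p-value under 0.05 and a size above 0.5, dotted lines mark that size. *BAP2* stands near 0.02 in the left panel and near -1.7 in the others, and all 10 values in the right panel are below 0.

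**Figure D4:**
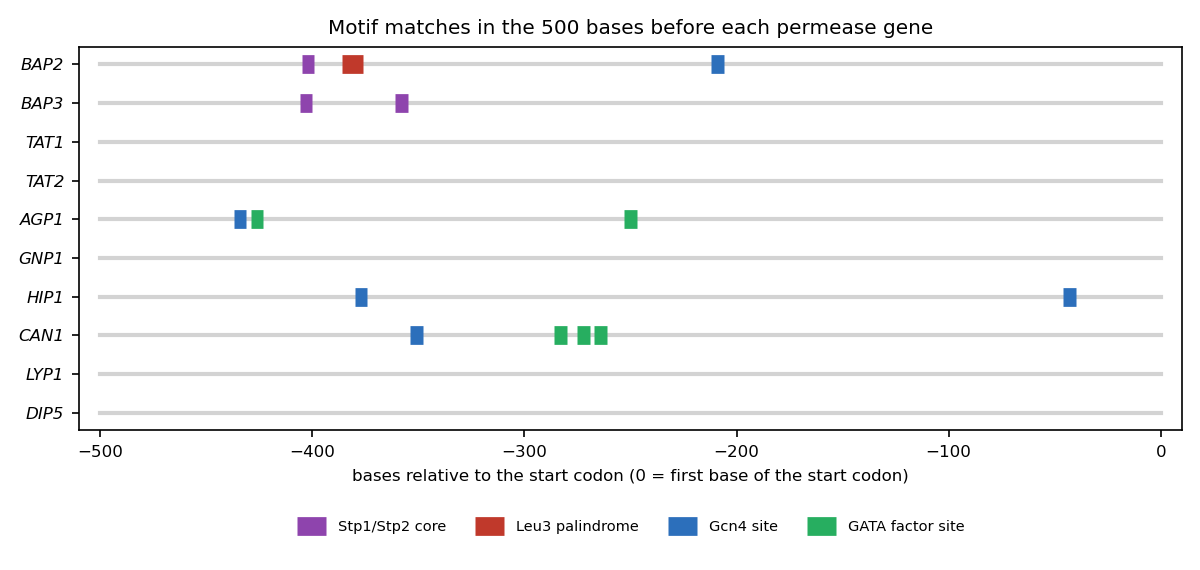
Matches to the 4 motifs (coloured blocks) in the 500 bases before the start codon of each permease (horizontal axis, bases relative to the start codon). *BAP2* has 3 matches, *BAP3* 2, *AGP1* 3, *HIP1* 2 and *CAN1* 4, and the other permeases have none.

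The permeases also differed among themselves in level, given here as CPM per kilobase of gene so that genes can be compared. *BAP2* was the highest in each group, with 258 ± 20 in *sup35-218* cells, 255 ± 20 in *SUP35* stage 3 cells and 834 ± 45 in stage 1 cells (SD). *AGP1* followed with 194 ± 16 in *sup35-218* cells, 244 ± 30 in *SUP35* stage 3 cells, where its range overlapped that of *BAP2*, and 315 ± 24 in stage 1 cells. *TAT2* had the lowest mean in each group, with 89.5 ± 5.2 in *sup35-218* cells, 59.5 ± 6.4 in *SUP35* stage 3 cells and 69.2 ± 5.2 in stage 1 cells. *TAT1* was next to it in both *SUP35* groups, and the ranges of the pair overlapped in *SUP35* stage 3 cells. In *sup35-218* cells the order was *BAP2*, *AGP1*, *DIP5*, *LYP1*, *GNP1*, *BAP3*, *TAT1*, *HIP1*, *CAN1* and *TAT2*. Ranges of neighbours in that order were separate for *BAP2* and *AGP1*, for *LYP1* and *GNP1* and for *CAN1* and *TAT2* and overlapped for all other neighbours. *CAN1* was thus at rank 9 among the *sup35-218* levels but at rank 5 in both *SUP35* groups. In *SUP35* stage 3 cells the neighbours from *BAP3* through *LYP1*, *CAN1*, *GNP1* and *DIP5* to *HIP1* overlapped one after another. Over all cultures the mean level of *BAP2* exceeded that of 93.2% of the genes tested, and that of *TAT2* exceeded 52.6%.

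By the root mean square difference of centred log2 CPM over the 10 cultures, the genes most like *BAP2* were *HER1* (0.18), *DRS2*, a phospholipid flippase (0.21), and *CHA1*, the catabolic serine and threonine deaminase (0.22). Those most like *AGP1* were *FMP42* (0.066), *CSI2* (0.080) and *EPL1* (0.089), and those most like *DIP5* were *ALK1* (0.13), *DSS1* (0.14) and *STE6* (0.16). Among the permeases the closest pairs were *GNP1* with *LYP1* (0.10) and *AGP1* with *CAN1* (0.11). These cultures share their groups, and the values describe likeness only.

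The 10 coding sequences are 1773 to 1992 bases long. In the reference they end with TAA in *BAP2*, *TAT1*, *TAT2*, *AGP1* and *GNP1*, with TAG in *BAP3*, *CAN1*, *LYP1* and *DIP5* and with TGA in *HIP1*. No stretch of 50 bases in any of them occurs elsewhere in the genome.

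Of 11 other plasma membrane transporters of amino acids and related compounds, 5 were higher and 2 lower in *sup35-218* than in *SUP35* cells at stage 3. Of all genes tested, 10.7% were higher and 12.6% lower in this comparison. *PTR2*, the peptide transporter, had 83.9, 92.0 and 134 CPM in *sup35-218* cells, against 34.2, 48.8, 50.6 and 38.2 CPM in *SUP35* stage 3 cells, with no overlap (log2FC 1.27 ± 0.19, adjusted p = 0.00018 by edgeR's quasi-likelihood test). *MMP1*, the S-methylmethionine permease, had 238, 93.7 and 377 CPM in *sup35-218* cells, against 55.1, 69.0, 63.7 and 107 CPM in *SUP35* stage 3 cells, so 1 *sup35-218* culture lay within the *SUP35* range (log2FC 1.68 ± 0.34). *AGP3* (1.33 ± 0.27) had 95.2, 31.7 and 80.5 CPM in *sup35-218* cells, against 24.8, 22.4, 28.9 and 33.9 CPM in *SUP35* stage 3 cells, so here too 1 *sup35-218* culture lay within the *SUP35* range. *SAM3* (0.61) and *AGP2* (0.55) were the other higher ones, the last of them not called without *SUP35* stage 3 replicate 4. *PUT4*, the proline permease, was lower (-1.72 ± 0.34), with 58.0, 40.7 and 47.2 CPM in *sup35-218* cells, against 287, 124, 151 and 75.5 CPM in *SUP35* stage 3 cells. *GAP1*, the general amino acid permease, was lower too, with 36.1, 25.2 and 26.6 CPM in *sup35-218* cells, against 61.6, 53.8, 49.2 and 61.7 CPM in *SUP35* stage 3 cells (-0.95 ± 0.17). Both are known to be expressed mainly when nitrogen sources are poor.

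Against stage 1, 1 of these 11 was higher and 2 were lower in *sup35-218* cells (14.7% and 16.5% of all genes tested). The higher one was *AGP3* (1.13), whose *sup35-218* culture at 31.7 CPM lay within the stage 1 range and below 2 of the 3 stage 1 cultures. The lower ones were *GAP1* (-1.79) and the methionine permease *MUP1* (-0.69, not called without *sup35-218* replicate 2). In *SUP35* stage 3 cells 5 were lower than at stage 1: *GAP1* (-0.84), *MUP1* (-0.90), *MMP1* (-1.41), *SAM3* (-0.62) and *PTR2* (-0.91). Of all genes tested, 7.21% were higher and 6.63% lower in that comparison. *PUT4* was higher (1.01), with 75.5 to 287 CPM in *SUP35* stage 3 cells and 61.2 to 89.0 CPM at stage 1. The *PUT4* call was lost without any 1 of the stage 1 cultures and without *SUP35* stage 3 replicate 1 or 3. The median log2FC of the list was 0.29, -0.09 and -0.38 in *sup35-218* over *SUP35* at stage 3, *sup35-218* over stage 1 and *SUP35* stage 3 over stage 1.

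Of the 13 genes of the SPS sensing pathway, the sensor gene *SSY1* and the factor gene *STP1* had a log2FC of 0.02 ± 0.13 and 0.19 ± 0.13 in *sup35-218* over *SUP35* at stage 3, and neither was a DEG in any comparison. *STP2* was lower in *sup35-218* cells than at stage 1 (-0.86 ± 0.15), with 247 to 253 CPM in *sup35-218* cells and 432 to 471 CPM at stage 1. *ASI1*, whose product keeps unprocessed Stp1 and Stp2 from acting in the nucleus, was lower in *sup35-218* cells against *SUP35* stage 3 cells (-0.90 ± 0.12) and against stage 1 (-1.45 ± 0.13), as was *ASI3* against stage 1 (-0.59). *ASI1* was also lower in *SUP35* stage 3 cells than at stage 1 (-0.55), a call lost without stage 1 replicate 2 or *SUP35* stage 3 replicate 2. By edgeR 1, 3 and 1 of the 13 were lower and 0 higher in the 3 comparisons, in the order of the medians below. Of all genes tested, 12.6%, 16.5% and 6.63% were lower and 10.7%, 14.7% and 7.21% higher in the same order. At an unadjusted p under 0.05, 1, 2 and 0 of the 13 were higher, and DESeq2 called 0 higher. The list's median log2FC was -0.05, -0.20 and -0.20 in *sup35-218* over *SUP35* at stage 3, *sup35-218* over stage 1 and *SUP35* stage 3 over stage 1. Against *SUP35* stage 3 cells the count of DEGs in *sup35-218* cells was 2 in place of 1 without *SUP35* stage 3 replicate 4 and without *sup35-218* replicate 1 or 2, and against stage 1 the *SUP35* stage 3 count was 2 without *SUP35* stage 3 replicate 1.

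Among 7 regulators of nitrogen and amino acid control, *LEU3* was lower in all 3 comparisons. *LEU3* had 73.5, 87.2 and 73.0 CPM in *sup35-218* cells, 159, 136, 127 and 120 CPM in *SUP35* stage 3 cells and 217, 235 and 267 CPM in stage 1 cells. The 3 groups did not overlap, and the log2FC was -0.80 ± 0.12 in *sup35-218* over *SUP35* at stage 3, -1.62 ± 0.13 in *sup35-218* over stage 1 and -0.82 ± 0.11 in *SUP35* stage 3 over stage 1. *GCN4* was a DEG in no comparison, with 760 to 895 CPM in *sup35-218* cells, 851 to 975 in *SUP35* stage 3 cells and 760 to 909 in stage 1 cells. These are RNA levels, and the amount and activity of the Gcn4 protein were not tested here. *GLN3* and *GAT1*, the GATA activators, were lower than at stage 1 in *sup35-218* cells (-1.35 and -1.29) and in *SUP35* stage 3 cells (-1.01 and -0.79), and *GZF3* (-0.81) and *URE2* (-0.75) were lower than at stage 1 in *sup35-218* cells. Against *SUP35* stage 3 cells, *GAT1* (-0.50) and *URE2* (-0.51) were lower in *sup35-218* cells close to the cutoff, and only *LEU3* of the list was still a DEG without *SUP35* stage 3 replicate 1 or 2. Without *sup35-218* replicate 2 *GAT1* was not called, and without *sup35-218* replicate 1 or 3 *URE2* was not. By edgeR 3, 5 and 3 of the 7 were lower in those comparisons and 0 higher, and 0 were higher at an unadjusted p under 0.05 or by DESeq2. Of all genes tested, 12.6%, 16.5% and 6.63% were lower and 10.7%, 14.7% and 7.21% higher. The median log2FC of the list was -0.47, -0.81 and -0.39.

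Permeases reach the plasma membrane with the help of export chaperones and leave it by ubiquitylation through Rsp5 and its adaptors. Of 14 such genes, *CSR2*, an adaptor gene, was higher in *sup35-218* cells (252 to 374 CPM) than in *SUP35* stage 3 cells (96.5 to 148 CPM, log2FC 1.31 ± 0.19) and than in stage 1 cells (101 to 176 CPM, log2FC 1.20 ± 0.21). *ART10* was also higher against *SUP35* stage 3 cells (0.54, not called without *sup35-218* replicate 3). *NPR1*, the kinase that stabilises permeases, was lower in *sup35-218* cells against *SUP35* stage 3 cells (-0.59, not called without *SUP35* stage 3 replicate 1) and stage 1 (-0.91). *ROG3* was lower against the same groups (-0.76 and -0.54), the second call being lost without *SUP35* stage 3 replicate 1 or 2 or *sup35-218* replicate 1 or 3, and *ECM21* was lower against stage 1 (-0.73). *BUL1* was the 1 gene called in *SUP35* stage 3 cells over stage 1 (-0.62). In the same order of comparisons the counts were 2 higher and 2 lower, 1 higher and 3 lower, and 0 higher and 1 lower, with medians of -0.09, -0.20 and -0.11. Of all genes tested, 10.7%, 14.7% and 7.21% were higher and 12.6%, 16.5% and 6.63% lower in these comparisons. In the last comparison 1 of the 14 had a higher value at an unadjusted p under 0.05, and DESeq2 called 0 higher.

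Of 16 vacuolar amino acid transporters 14 were tested, and *VBA3* and *VBA5* did not pass the filter. Of the 50-base stretches of these genes, 74.8% in *VBA3* and 72.9% in *VBA5* also occur elsewhere in the genome. By edgeR 2, 5 and 3 were lower in *sup35-218* over *SUP35* at stage 3, *sup35-218* over stage 1 and *SUP35* stage 3 over stage 1, with medians of -0.20, -0.39 and -0.12. None was higher by edgeR or DESeq2, and 0, 0 and 1 were higher at an unadjusted p under 0.05. Of all genes tested, 12.6%, 16.5% and 6.63% were lower and 10.7%, 14.7% and 7.21% higher in these comparisons. *RTC2*, which encodes a putative vacuolar transporter of basic amino acids, was lower in all 3 comparisons (-1.73, -2.57 and -0.84). The last of these calls was lost without stage 1 replicate 1 or 2 or *SUP35* stage 3 replicate 2. *ERS1* was lower in the first (-0.80). Against stage 1, *AVT7* (-0.50), *VBA2* (-0.53), *VBA4* (-0.58) and *ERS1* (-0.57) were lower in *sup35-218* cells, and *AVT2* (-0.60) and *VBA2* (-0.73) in *SUP35* stage 3 cells. The 5 calls of *sup35-218* over stage 1 were 2 without stage 1 replicate 1 or without *sup35-218* replicate 2, and 3 without *SUP35* stage 3 replicate 1 or 2 or *sup35-218* replicate 1 or 3.

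**Figure D5:**
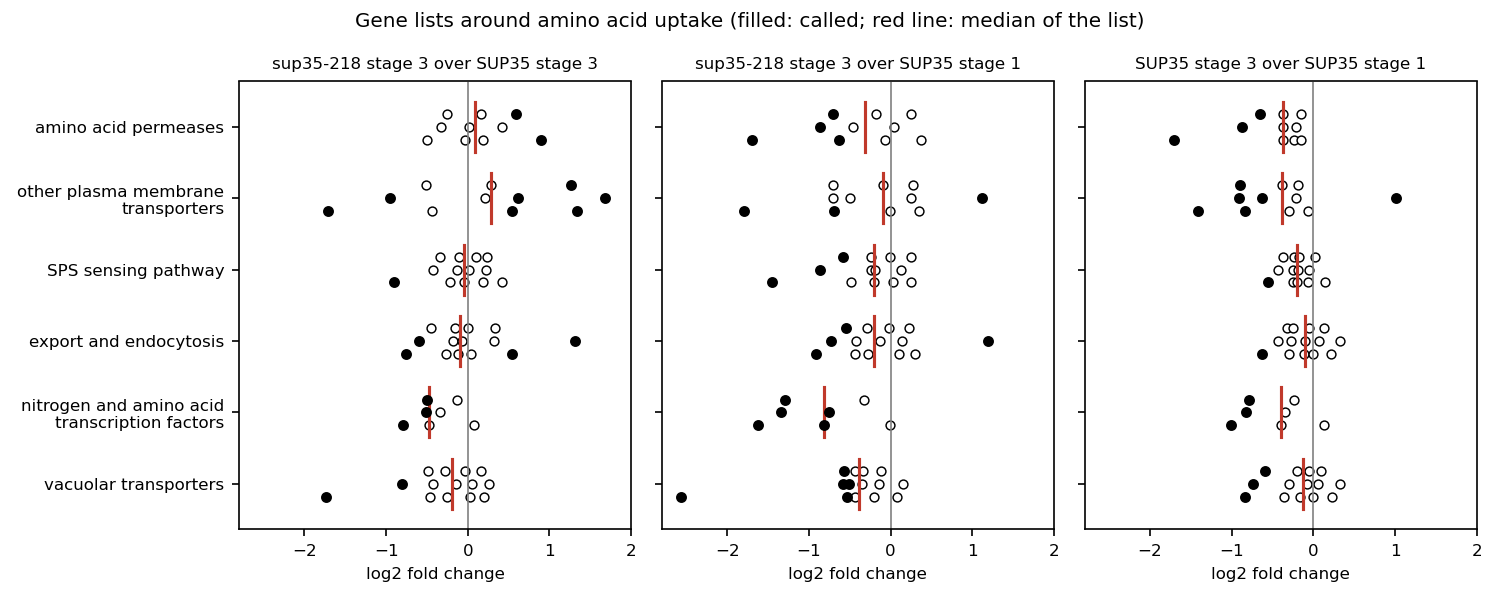
Log2FC (horizontal axis) of the permeases and of 5 related gene lists in the 3 comparisons; each point is a gene, filled where it was a DEG, and red lines are list medians. The list labelled as transcription factors is that of the 7 regulators of nitrogen and amino acid control, which include *URE2*. Its red line is at -0.47, -0.81 and -0.39 from the left panel to the right, and that of the permeases at 0.09, -0.31 and -0.37.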

How the data were processed

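RNA from 10 cultures was sequenced by the authors (directional libraries, read pairs of 150 nucleotides), trimmed with Trimmomatic, aligned with HISAT2 to the S288C genome (R64) and counted with featureCounts, whose strand setting is not given in the sources used here. The authors deposited raw read counts of 6607 genes per culture, without normalization. All columns of counts were used. Samples were grouped by the strain in their labels, and each culture is a biological replicate. Coordinates matched the RefSeq annotation for 99.58% of 5924 shared names.

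Counts were normalized by TMM and tested in 1 fit of 3 groups with the quasi-likelihood test of edgeR 4.0.16 (R 4.3.3, limma 3.58.1), after filterByExpr with a minimum count of 10, with Benjamini-Hochberg adjustment over 5856 genes. A standard error is the size of the log2FC divided by the square root of F. Normalized CPM are counts over the TMM-corrected library size. Motifs were searched on both strands of the 500 bases before each start codon in the RefSeq genome. The code was tested on simulated data. Dixon's rule was applied to groups of 4.

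The members and the gene lists were chosen with earlier results of these data known. Named genes are all members, the called genes and up to 4 others of each list, and the 3 genes most alike in pattern for the 3 members highest per kilobase. Alternatives were DESeq2 1.42.0 size factors and its test, upper quartile scaling, other filters, fits of only the groups compared, a replicate block, glmTreat and leaving out each culture. Their use on the other lists was added after seeing the data.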

Additional observations from a re-analysis of the deposited data

Results flagged for a closer look

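Among the 4 *SUP35* stage 3 cultures, the value of 1 culture stood apart from the other 3 for 3 of the 10 permeases by Dixon's rule for groups of 4, where chance gives about 1 in 20 such groups. *HIP1* was at 261 normalized CPM in replicate 1, and the nearest of the others was at 192. *TAT1* was at 98.51 CPM in replicate 1, and the nearest was at 121. *BAP3* was at 292.8 CPM in replicate 3, and the nearest was at 299.5, a gap that is small beside the level. The groups of 3 were not examined in this way.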

How the results depend on the processing

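No permease reversed its direction in a call in any of the 18 alternatives. Tested by glmTreat against a log2FC of 0.5, the number of permeases called was 0 in place of 2 for *sup35-218* over *SUP35* at stage 3, 2 in place of 4 for *sup35-218* over stage 1 (*BAP2* and *CAN1*) and 2 in place of 3 for *SUP35* stage 3 over stage 1, because this test asks for more than a change from 0. Without 1 culture at a time the numbers were 2 to 3, 4 to 5 and 3 to 3 in the same comparisons. *CAN1* in *sup35-218* over *SUP35* at stage 3 was past the cutoff with DESeq2 size factors (-0.501), with at least 10 counts in every culture (-0.504) and with the replicate block (-0.52). With the replicate block 3, 4 and 3 permeases were called. Correlations of residuals between same-numbered cultures were 0.027 to 0.18, -0.24 to -0.00 and -0.18 to 0.41 in the same comparisons. In *sup35-218* and *SUP35* at stage 3 they were 0.027, 0.10 and 0.18, each above the mean with other numbers (-0.030, -0.025 and -0.049). Replicate 1 was not closest to its own number there (0.027 against 0.099). Residuals were centred in each group, so a positive value with the same number itself lowers the mean with other numbers. The correlations therefore do not settle whether same-numbered cultures were paired, and the main fit used no replicate block. Upper quartile scaling moved the median of all genes in *sup35-218* over stage 1 to 0.103, against 0.04 with TMM. With 3 or 4 cultures a group, changes near the cutoff of 0.5 are the least certain, as *CAN1* and *DIP5* show.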
